A study of Mus musculus with 16 samples.

Results

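The 9 genes *Sct*, *Nppb*, *Nebl*, *Aldh1a7*, *Diras2*, *Gprin1*, *Lrrn1*, *Dynap* and *Plekhs1* were followed in mouse satellite cell (SC)-derived myoblasts on one-color Agilent arrays, as 9 of the 20317 genes tested. They were selected on these same arrays for a large difference between 72 and 48 hr after isolation in at least 1 of 2 cultures, and for having no settled role in skeletal muscle. No numeric threshold defined the choice. The smallest of the 9 larger changes was that of *Plekhs1* (-2.14 on the log2 scale in dispersed myoblasts), between *Cbr2* (-2.14 in myofiber-associated) just above it and *Vav1* (-2.14 in myofiber-associated) just below it, and 417 genes had a larger change of at least that size. All differences between the times of the 9 genes are therefore given as a description without a test. All mice were male C57Bl/6J aged 11 to 13 weeks, and the labels name no mutation and no drug. Dispersed myoblasts were cultured off the fiber on gelatin, with 1 mouse per preparation. Myofiber-associated myoblasts were cultured on explanted myofibers and taken off them with washes and trypsin, with 2 mice per preparation. Each culture had 4 arrays at 48 hr and 4 arrays at 72 hr, and the myofiber-associated 48-hr array numbered 10+11 held 2 pooled preparations. Slide 1 carried every myofiber-associated array and slide 2 every dispersed array, so a difference between cultures cannot be told apart from a difference between slides. On each slide the later time filled columns 1 and 2 and the earlier time columns 3 and 4, so time cannot be told apart from slide column.

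SCs are the stem cells of skeletal muscle, and once activated they divide as myoblasts before they either differentiate and fuse or return to quiescence. Most of the 9 genes are known from other tissues. *Sct* encodes secretin, a gut peptide hormone, and *Nppb* encodes brain natriuretic peptide, a hormone of the heart. *Nebl* encodes nebulette, a nebulin relative of the cardiac Z disc, and *Aldh1a7* encodes a cytosolic aldehyde dehydrogenase closely related to the retinaldehyde dehydrogenase *Aldh1a1*. *Diras2* encodes a small GTPase of the Ras family, *Gprin1* a protein that binds activated Gi and Go subunits and promotes neurite outgrowth, and *Lrrn1* a neuronal leucine-rich repeat membrane protein. *Dynap* encodes a dynactin-associated membrane protein, and *Plekhs1* a protein with a pleckstrin homology domain.

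Signal is given as log2 normalized intensity, on which a difference of 1 is a 2-fold difference. Each probe responds in its own way, so levels were not compared between genes. The scanner software called 54.1% to 63.5% of probes well above background on the 16 arrays. None of the 176 spots of the 9 genes was saturated or an outlier. Of 6 myoblast markers, 5 (*Myod1*, *Myf5*, *Pax7*, *Des* and *Cdh15*) were tested, and these 5 were well above background on all arrays. Past an adjusted p of 0.01 (limma), *Myf5* and *Des* rose in dispersed and *Pax7* and *Cdh15* in myofiber-associated myoblasts, and none fell. Of all genes, 7.37% and 3.74% rose. All 10 adult fiber markers, such as *Myh4* and *Pvalb*, were also well above background on all arrays. In myofiber-associated myoblasts their summed linear signal ranged from 705000 to 1010000 at 48 hr and from 149000 to 626000 at 72 hr. In dispersed myoblasts it ranged from 10200 to 24500 at 48 hr and from 5470 to 6900 at 72 hr. Fiber signal was thus lower at 72 hr in both cultures, without overlap between the times, and its part in the results below was not tested. Other cell types' markers also fell past an adjusted p of 0.01 (limma), as 6.35% of all genes did in dispersed and 1.75% in myofiber-associated myoblasts. In the dispersed culture 7 of 8 endothelial, 3 of 4 pericyte and smooth muscle, 4 of 5 Schwann cell, 2 of 6 leukocyte and 0 of 6 fibroblast markers fell. In the myofiber-associated culture 5 of 8, 1 of 4, 0 of 5, 0 of 6 and 3 of 6 of them fell, in the same order. The 1 adipocyte marker tested fell in both cultures, and of 3 tendon cell markers 1 rose in each. Of 18 genes of muscle differentiation, 8 rose and 4 fell in dispersed and 4 rose and none fell in myofiber-associated myoblasts. Over all genes 7.37% and 3.74% rose. The median log2 change of the 18 was 0.62 in dispersed but -0.70 in myofiber-associated myoblasts. The 4 that rose in the latter were *Myh3* (6.73, from a 48-hr group not well above background), *Tmem8c* (2.30), *Chrng* (1.78) and *Chrna1* (1.37). Genes with lower means there, such as *Ckm* (-2.06), *Tnnt3* (-1.53) and *Acta1* (-1.27), did not pass. In myofiber-associated myoblasts the summed signal of the 18 ranged from 1940000 to 2300000 at 48 hr and from 676000 to 2020000 at 72 hr. That sum mostly follows its brightest genes, such as *Acta1* and *Tnnt3*. Summed endothelial signal ranged from 29900 to 37300 and from 12400 to 16400 in dispersed myoblasts at 48 and 72 hr, and from 8270 to 12400 and from 6350 to 7160 in myofiber-associated ones. Summed Schwann cell signal was lower at 72 hr in dispersed myoblasts (7570 to 9840, then 3760 to 5060). In myofiber-associated ones it was higher (1090 to 2250, then 2410 to 4640). The part of these markers in the results was not tested. In RNA from mixed cells, fewer cells of a type and less RNA per cell cannot be told apart.

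The 9 genes were measured by 11 probes of 60 bases, 1 for each gene except *Nebl*, which had 3. In build mm9 the probes lie at chr7:148464238-148464297 (*Sct*), chr4:147360489-147360548 (*Nppb*), chr19:20767553-20767612 (*Aldh1a7*), chr13:52599744-52599802 (*Diras2*), chr13:54838034-54838093 (*Gprin1*), chr6:107519883-107519942 (*Lrrn1*) and chr19:56561121-56561180 (*Plekhs1*), each on a RefSeq messenger RNA, as the array's annotation gives them. The first 30 bases of the *Nebl* probes are shown because these probes gave different results. In mouse genome build mm9 all 3 lie on chromosome 2, on the minus strand. Probe 1 (chr2:17296660-17296719) was designed on an Ensembl transcript, probe 2 (chr2:17268361-17268420) on the RefSeq messenger RNA of *Nebl*, and probe 3 (chr2:17314550-17314609) on a complementary DNA clone. Probe 1 lies 28299 bases from probe 2 and 17890 bases from probe 3.
Nebl probe 1: gcccttggggcacagtgttatagttacact
Nebl probe 2: cttgaacacacacctacaaagataaactgc
Nebl probe 3: tgcaagtgaacatggatatcccagatatgc

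The 250 bases before the start are shown for *Sct*, *Nppb* and *Diras2*, each of which holds the E-box CAGCTG and each of which had another time pattern. Sequences are those of RefSeq on build GRCm38.p6, read 5′ to 3′ on the gene's strand, with every E-box (CANNTG) in capitals. They come from chr7:141279134-141279383 on the minus strand for *Sct*, chr4:147985650-147985899 on the plus strand for *Nppb* and chr13:52530837-52531086 on the minus strand for *Diras2*.
Sct: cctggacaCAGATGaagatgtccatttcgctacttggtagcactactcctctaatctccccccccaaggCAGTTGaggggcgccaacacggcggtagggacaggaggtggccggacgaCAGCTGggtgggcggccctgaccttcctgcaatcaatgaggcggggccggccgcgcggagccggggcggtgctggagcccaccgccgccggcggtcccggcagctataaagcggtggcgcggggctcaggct
Nppb: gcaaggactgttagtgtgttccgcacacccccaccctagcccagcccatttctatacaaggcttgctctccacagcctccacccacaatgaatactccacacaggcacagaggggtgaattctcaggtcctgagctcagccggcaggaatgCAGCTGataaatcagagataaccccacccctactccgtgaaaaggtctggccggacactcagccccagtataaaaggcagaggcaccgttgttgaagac
Diras2: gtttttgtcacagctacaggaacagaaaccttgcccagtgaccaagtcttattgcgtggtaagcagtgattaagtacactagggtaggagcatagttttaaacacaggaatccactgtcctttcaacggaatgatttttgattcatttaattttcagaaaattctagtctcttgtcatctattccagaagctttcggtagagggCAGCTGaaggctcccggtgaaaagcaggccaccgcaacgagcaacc

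A window from 250 bases before to 50 bases after the start was searched on both strands, in the first window of each of 8 genes. CAGCTG, which is itself an E-box, was found in 4 of the 8, at position -132 in *Sct*, -99 in *Nppb*, -46 in *Diras2* and -1 in *Lrrn1*. It was found in 16.3% of all 32851 promoter windows of that length. Any E-box was found in 7 of the 8, all but *Gprin1*, against 72.3% of all windows. The MCAT motif CATTCC was found in 3 of the 8, *Nppb*, *Nebl* and *Diras2*, against 14.7%, and in *Nppb* its match at -105 directly adjoins the CAGCTG match. No match was found to the MEF2 site (3.19% of all windows) or to the CArG box (1.63%), except a CArG box at -162 in window 4 of *Nebl*, the only gene of the 8 with more than 1 window. A match describes these letters and shows no binding.

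**Figure D1:**
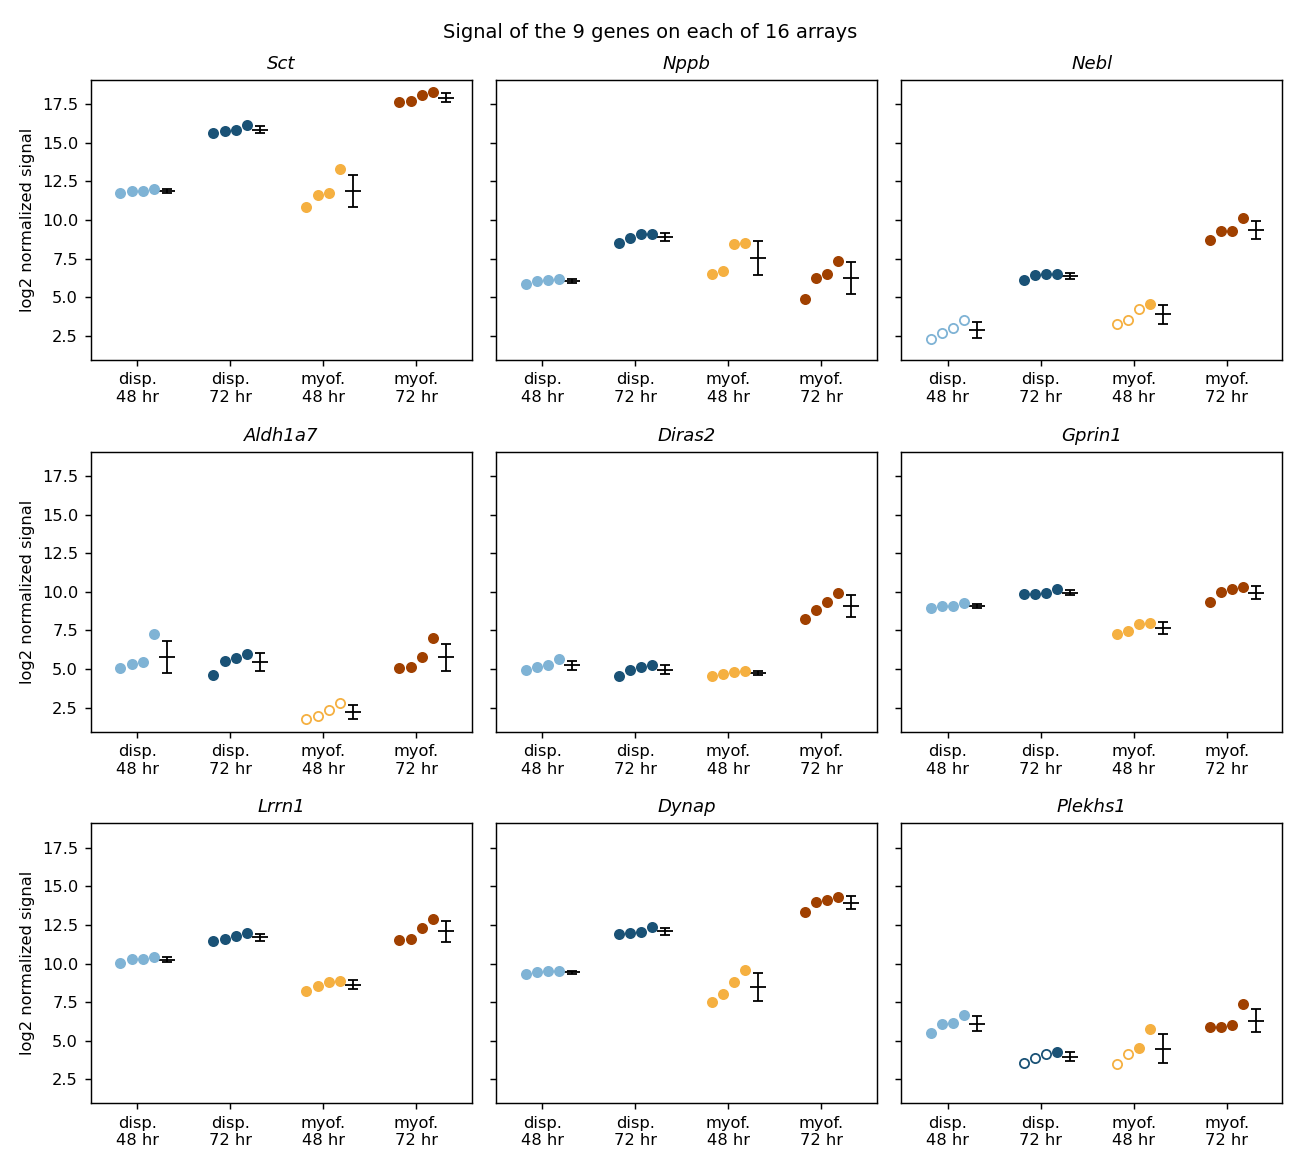
Log2 normalized signal (y axis) of the 9 genes on each array, in dispersed (disp.) and myofiber-associated (myof.) myoblasts at 48 and 72 hr. Filled points are arrays on which the probe was well above background, open points are the others, and the black bars give mean ± SD of 4 arrays. *Sct*, *Nebl* probe 1 and *Dynap* lay higher at 72 hr in both cultures, *Diras2* and *Aldh1a7* in myofiber-associated myoblasts, and *Nppb* in dispersed myoblasts.

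The 9 genes differed in their patterns over time. *Sct*, *Nebl*, *Dynap*, *Lrrn1* and *Gprin1* (5 genes) had higher means at 72 hr in both cultures. For *Nebl* this holds for probe 1, the brightest, which stands for the gene where no probe is named. Its probe 2 had a log2 change of -0.35 in dispersed myoblasts, with no array there well above background. *Diras2* and *Aldh1a7* were higher at 72 hr in myofiber-associated myoblasts, with overlapping times in dispersed myoblasts. *Nppb* was higher at 72 hr in dispersed myoblasts, with overlapping times in myofiber-associated ones, and *Plekhs1* was lower in dispersed and higher in myofiber-associated myoblasts. The mean changes of 4 genes (*Nppb*, *Aldh1a7*, *Diras2* and *Plekhs1*) had opposite signs in the cultures. In dispersed myoblasts the 4 arrays at 72 hr lay all above those at 48 hr for 6 of the 9 genes and all below for 1. Of all genes tested, 17.5% lay all above and 13.7% all below. In myofiber-associated myoblasts 8 of the 9 genes lay all above and none all below, where 15.9% and 10.4% of all genes did so. Nothing is read from these counts, because the same differences chose the genes.

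**Figure D2:**
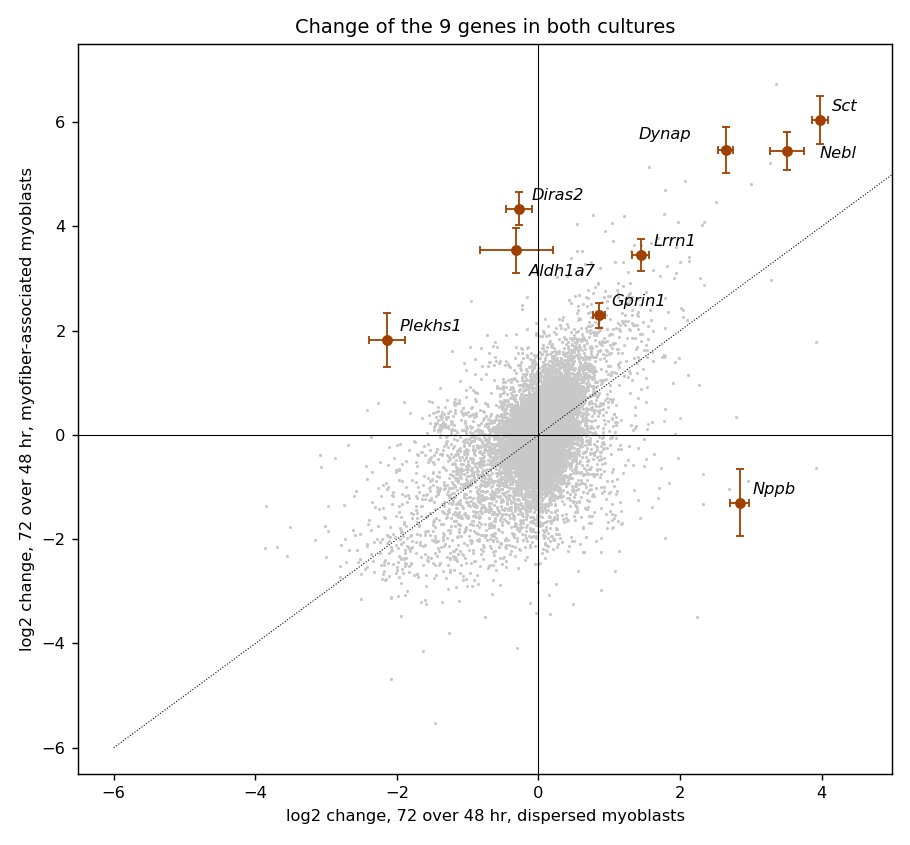
Log2 change between 48 and 72 hr in dispersed myoblasts (x axis) and in myofiber-associated myoblasts (y axis), with the 20317 genes tested in gray and the 9 genes in brown with SE bars. The dotted line marks equal change, and 8 of the 9 genes lie above it, with *Nppb* below.

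By change toward 72 hr *Sct* ranked 1 of all genes tested in dispersed myoblasts and 2 in myofiber-associated myoblasts. Its signal in dispersed myoblasts was 11.99, 11.73, 11.90 and 11.86 at 48 hr and 15.75, 15.63, 15.83 and 16.16 at 72 hr. In myofiber-associated myoblasts it was 10.84, 11.77, 11.63 and 13.34 at 48 hr and 18.27, 17.67, 18.12 and 17.69 at 72 hr. The times stayed far apart in both cultures, and the highest myofiber-associated 48-hr value was that of the pooled array 10+11. The mean log2 change was 3.97 (SE 0.11) in dispersed and 6.04 (SE 0.47) in myofiber-associated myoblasts, or 15.7- and 65.8-fold. With 1 array left out in turn it ranged from 3.87 to 4.04 in dispersed and from 5.69 to 6.52 in myofiber-associated myoblasts.

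The secretin receptor, *Sctr*, a G protein-coupled receptor, rose in dispersed myoblasts from 6.27 ± 0.31 to 7.60 ± 0.11 (SD, n = 4; limma adjusted p = 0.000497). Its level in myofiber-associated myoblasts was 9.56 at 48 hr and 8.98 at 72 hr (limma adjusted p = 0.421), and the difference between the 2 changes did not pass the threshold of 0.01 (limma adjusted p = 0.0403). With the mean of the probes in place of the brightest probe, the change in dispersed myoblasts was 0.73 and no longer passed (limma adjusted p = 0.0116), nor did it in one fit of all 16 arrays (limma adjusted p = 0.0544). *Sctr* was the only 1 of 8 tested secretin family hormones and receptors past the threshold in dispersed myoblasts, where 7.37% of all genes rose and 6.35% fell. In myofiber-associated myoblasts none of the 8 passed, where 3.74% of all genes rose and 1.75% fell.

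*Nppb* was higher at 72 hr in dispersed myoblasts and had a lower mean in myofiber-associated myoblasts. Its signal in dispersed myoblasts was 6.19, 6.10, 6.02 and 5.88 at 48 hr and 8.81, 9.10, 9.12 and 8.52 at 72 hr. In myofiber-associated myoblasts it was 8.47, 6.49, 8.52 and 6.71 at 48 hr and 4.88, 7.37, 6.23 and 6.5 at 72 hr. The dispersed times were well separated, whereas the myofiber-associated arrays overlapped, with values of 1 time spread over more than 2 log2 units. The mean log2 change was 2.84 (SE 0.14, rank 11 from the top) in dispersed and -1.30 (SE 0.64) in myofiber-associated myoblasts. Their difference, the log2 of the comparative ratio (CR, the change in dispersed over that in myofiber-associated myoblasts), was 4.14.

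*Nppa*, the neighboring gene of *Nppb* on RefSeq's map, encodes atrial natriuretic peptide. It rose in dispersed myoblasts from 5.16 to 5.72 (limma adjusted p = 0.000239) and was 6.04 and 5.70 in myofiber-associated myoblasts (limma adjusted p = 0.128). Its log2 CR of 0.90 passed the threshold (limma adjusted p = 0.00471), as 3.45% of all genes did. *Npr3*, the clearance receptor of these peptides, had changes of 0.71 (limma adjusted p = 0.0606) and -1.05 (limma adjusted p = 0.0267), and a log2 CR of 1.76 (limma adjusted p = 0.00973). With each of the 16 arrays left out in turn, the CR of *Nppa* passed 9 times and that of *Npr3* 4 times, and the highest limma adjusted p over all alternatives was 0.0213 and 0.0245. *Npr2*, the receptor for C-type natriuretic peptide, was 11.38 and 11.43 in dispersed and 11.25 and 11.49 in myofiber-associated myoblasts (limma adjusted p = 0.414 and 0.0916). *Npr1*, the guanylyl cyclase receptor through which *Nppb* acts, was below the signal filter and was not tested. Of the 6 tested genes of this list, 1 rose in dispersed and none passed in myofiber-associated myoblasts. Over all genes 7.37% rose and 6.35% fell in the former, and 3.74% rose and 1.75% fell in the latter.

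*Nebl* probe 1 gave higher signal at 72 hr in both cultures, from 48-hr groups at or near background. Among dispersed arrays it read 2.26, 3.50, 2.68 and 3.03 at 48 hr, not well above background on any array, and 6.43, 6.48, 6.10 and 6.5 at 72 hr. In myofiber-associated myoblasts it read 3.50, 3.26, 4.23 and 4.58 at 48 hr, well above background only on array 10+11, and 10.11, 9.29, 9.28 and 8.70 at 72 hr. Both cultures therefore went from near background to clear signal with this probe. As a first limit on each array, the lowest signal among probes well above background was taken, or the probe's own signal where that is higher. The probe's own signal was higher on every dispersed 48-hr array. The resulting 11.4-fold higher signal at 72 hr is thus the plain difference from values not well above background, and no lower bound. With the 99th percentile of the probes not well above background as the limit, it was at least 3.92-fold. In myofiber-associated myoblasts the log2 difference was 5.45, against a 48-hr group measured well above background on 1 of 4 arrays.

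Probes 2 and 3 of *Nebl* were each well above background on 1 of the 16 arrays. Probe 2, on the RefSeq messenger RNA, was well above background only on the myofiber-associated 72-hr array of replicate 4, at 8.61, and read 2.55 to 3.37 on the others of that group. Probe 3 was well above background only on the myofiber-associated 72-hr array of replicate 1, at 4.12. Their log2 differences in dispersed myoblasts were -0.35 and 0.29, with overlapping times and no array well above background. In myofiber-associated myoblasts the mean of probe 2 was 2.23 higher at 72 hr, without overlap between the times (gap 0.31). That is a plain difference of 4.69-fold, or 1.29-fold with the stricter limit. Neither is a lower bound, because at 72 hr only the array of replicate 4 was well above background. Probe 3 was 0.89 higher there, with overlapping times. In dispersed myoblasts the higher signal at 72 hr was thus seen with probe 1 of the 3.

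**Figure D3:**
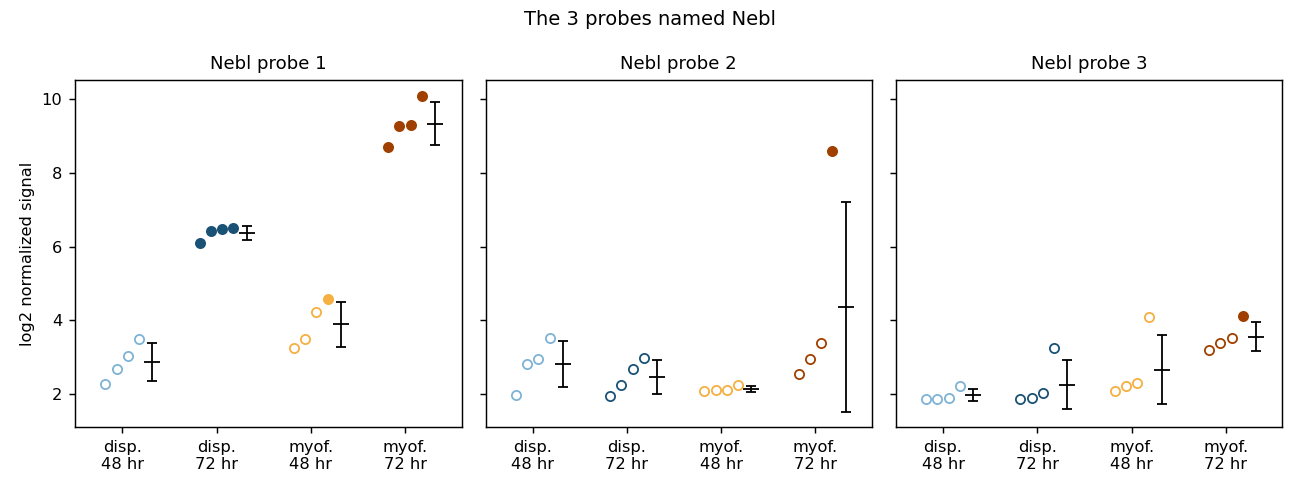
Log2 normalized signal (y axis) of the 3 probes named *Nebl* on each array by culture and time, with filled points for arrays well above background and mean ± SD of 4 arrays. Probe 1 lay at 6.10 to 10.11 on the 72-hr arrays, whereas probes 2 and 3 were each well above background on 1 array.

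*Neb*, which encodes nebulin, the giant thin filament protein, was 8.42 and 8.93 in dispersed and 13.51 and 12.16 in myofiber-associated myoblasts (limma adjusted p = 0.106 and 0.0953). Of 17 nebulin family and Z disc genes, 3 rose (*Tpm1*, *Des* and *Flnc*) and 5 fell (*Tcap*, *Ldb3*, *Myoz1*, *Myoz3* and *Myot*) in dispersed myoblasts (median log2 change -0.14, against 0.02 over all genes). There 7.37% of all genes rose and 6.35% fell. *Myoz3*, a calsarcin that binds calcineurin, fell from 5.02, well above background on 2 of 4 arrays, to a level not well above background on any 72-hr array (limma adjusted p = 0.000344), and *Des*, the muscle intermediate filament protein desmin, rose by 0.72 (limma adjusted p = 0.00155). In myofiber-associated myoblasts none of the 17 passed, where 3.74% of all genes rose and 1.75% fell, and their median was -1.44 against 0.06. The adult fiber signal, which includes other sarcomere genes, was lower at 72 hr in the same arrays. *Nebl* probe 1 thus had a change opposite in sign to that median.

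*Aldh1a7* was not well above background on any myofiber-associated 48-hr array and was so on every array of the other groups. It read 2.34, 1.78, 2.77 and 1.93 at 48 hr and 7.01, 5.11, 5.78 and 5.09 at 72 hr in myofiber-associated myoblasts. In dispersed myoblasts it read 5.31, 5.44, 7.28 and 5.05 at 48 hr and 5.97, 5.53, 5.69 and 4.63 at 72 hr. The myofiber-associated 48-hr group stood below the other 3, which overlapped each other. In myofiber-associated myoblasts signal at 72 hr was 11.3-fold higher with the first limit, close to the plain 11.6-fold difference, or at least 3.36-fold with the stricter limit. The plain log2 change there was 3.54, the mean of the deposited log2 ratios was 2.04, and the smallest change among the alternatives in processing was 0.94. The log2 change in dispersed myoblasts was -0.31 (SE 0.51), and it was 0.19 without the dispersed 48-hr array of replicate 3, the array that read 7.28.

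*Aldh1a1*, which neighbors *Aldh1a7* on RefSeq's map, was 9.77 and 9.11 in dispersed (limma adjusted p = 0.0104) and 11.78 and 10.03 in myofiber-associated myoblasts (limma adjusted p = 0.0674). Both its means were lower at 72 hr without passing. *Aldh1a3*, another retinaldehyde dehydrogenase, fell by 2.39 in myofiber-associated myoblasts (SE 0.32; limma adjusted p = 0.00319), a call lost without the 72-hr arrays of replicate 1 or 3 or the 48-hr arrays of replicate 7 or 8 (highest adjusted p 0.0149). *Dhrs3*, which reduces retinaldehyde to retinol, fell by 1.57 in dispersed myoblasts (limma adjusted p = 2.96e-05) and was 11.56 and 11.59 in myofiber-associated myoblasts. Its log2 CR of -1.60 passed (limma adjusted p = 0.00671) but held in 3 of the 16 fits with 1 array left out. Of 16 tested genes of retinoid metabolism and signaling, 1 rose (*Crabp2*) and 1 fell in dispersed, and 1 rose (the receptor *Rarg*) and 1 fell in myofiber-associated myoblasts. Over all genes 7.37% rose and 6.35% fell in the former, and 3.74% and 1.75% in the latter.

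*Diras2* stayed low in 3 groups and was high in myofiber-associated myoblasts at 72 hr. It read 5.12, 5.24, 4.94 and 5.64 at 48 hr and 4.93, 5.24, 5.11 and 4.56 at 72 hr in dispersed myoblasts. On myofibers it read 4.90, 4.69, 4.79 and 4.56 at 48 hr and 9.90, 8.84, 9.32 and 8.22 at 72 hr. The 4 high arrays lay above all arrays of the other groups, and the probe was well above background on all 16 arrays. The log2 change was 4.34 (SE 0.32, rank 13, 20.2-fold) in myofiber-associated and -0.27 (SE 0.19) in dispersed myoblasts, which gave the largest difference between the cultures of the 9 genes, a log2 CR of -4.61. The smallest myofiber-associated change among the alternatives in processing was 2.82.

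The closest relative, *Diras1*, a small GTPase of the same subfamily, rose in both cultures, by 0.56 (limma adjusted p = 0.000569) among dispersed myoblasts and by 1.47 (limma adjusted p = 0.00221) among myofiber-associated ones. Without the myofiber-associated 48-hr array of replicate 7 the latter was 1.39 and just missed (limma adjusted p = 0.0104). Its log2 CR of -0.92 passed (limma adjusted p = 0.00923) but held in only 3 of the 16 fits with 1 array left out. *Rem2*, an RGK GTPase that restrains calcium channels, rose by 1.39 in dispersed myoblasts (limma adjusted p = 0.000177) and was 1.38 higher at 72 hr in myofiber-associated myoblasts (limma adjusted p = 0.0116). At 48 hr it was well above background on only 1 dispersed and 2 myofiber-associated arrays. Its rise in dispersed myoblasts was as small as 0.40 among the alternatives in processing. Over the list, 4 of 13 tested Ras-like genes rose in dispersed myoblasts (*Diras1*, *Rem2*, *Rasl10a* and *Rasl11a*) and 1 fell (*Rasd2*), against 7.37% and 6.35% of all genes. In myofiber-associated myoblasts 2 rose (*Diras1* and *Rasl11a*) and 1 fell (*Rasl12*), against 3.74% and 1.75% of all genes. *Rem1* passed for the CR alone, at -1.04 (limma adjusted p = 0.00737), and held in 3 of the 16 fits with 1 array left out.

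*Gprin1* and *Lrrn1*, both known from neurons, had the same shape, with the lowest level in myofiber-associated myoblasts at 48 hr and similar levels in the cultures at 72 hr. *Gprin1* in dispersed myoblasts read 9.08, 8.97, 9.05 and 9.28 at 48 hr and 9.87, 9.87, 9.92 and 10.15 at 72 hr. In myofiber-associated myoblasts it read 7.48, 7.99, 7.23 and 7.94 at 48 hr and 10.30, 9.99, 10.18 and 9.35 at 72 hr. The 72-hr groups overlapped, with means of 9.95 and 9.95. The log2 change of *Gprin1* was 0.86 (SE 0.09) in dispersed and 2.29 (SE 0.25) in myofiber-associated myoblasts.

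*Lrrn1* read 10.40, 10.05, 10.32 and 10.29 at 48 hr and 11.77, 11.47, 11.60 and 11.99 at 72 hr in dispersed myoblasts. On myofibers it read 8.79, 8.58, 8.90 and 8.25 at 48 hr and 12.91, 11.52, 12.31 and 11.58 at 72 hr. Its times did not overlap in either culture, and its 72-hr groups overlapped each other. The log2 change was 1.44 (SE 0.12) in dispersed and 3.45 (SE 0.31) in myofiber-associated myoblasts.

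Among 8 tested partners of *Gprin1* (Gi, Go and Gz subunits and growth cone proteins), 1, *Gnai1*, an inhibitory G protein subunit, rose in each culture. For this list and the next, 7.37% of all genes rose and 6.35% fell in dispersed myoblasts. In myofiber-associated ones 3.74% of all genes rose and 1.75% fell. *Gnai1* rose by 1.04 in dispersed myoblasts (limma adjusted p = 5.61e-05), and its rise in the other culture was 1.93 (limma adjusted p = 0.00343). The myofiber-associated call was lost without the 72-hr arrays of replicate 1 or 3 or the 48-hr arrays of replicate 7 or 9 (highest adjusted p 0.0148). *Gnai2* differed between the cultures, with a log2 CR of -0.74 (limma adjusted p = 0.0033). Among 9 tested relatives of *Lrrn1*, *Islr*, a secreted leucine-rich repeat protein, fell by 1.06 in dispersed myoblasts (limma adjusted p = 0.0039) and was 1.38 higher at 72 hr in myofiber-associated myoblasts (limma adjusted p = 0.0158). Its log2 CR of -2.44 passed (limma adjusted p = 0.00144), also with any array left out. *Lrig1*, a negative regulator of growth factor receptors, fell by 0.77 in myofiber-associated myoblasts (limma adjusted p = 0.0059). The closest relative, *Lrrn3*, had changes of 0.19 and 1.34, neither past the threshold (limma adjusted p = 0.147 and 0.0163).

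*Dynap* had the same direction as *Sct* in both cultures. It read 9.50, 9.31, 9.44 and 9.51 at 48 hr and 12, 11.92, 12.03 and 12.38 at 72 hr in dispersed myoblasts. In myofiber-associated myoblasts it read 7.50, 8.80, 8.01 and 9.61 at 48 hr and 14.31, 13.97, 14.15 and 13.32 at 72 hr. As with *Sct*, array 10+11 was the highest and replicate 7 the lowest of the myofiber-associated 48-hr group. The log2 change was 2.64 (SE 0.10, rank 14) in dispersed and 5.46 (SE 0.44, rank 5) in myofiber-associated myoblasts. None of 9 dynactin subunits passed in either culture (medians 0.03 and 0.03).

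*Plekhs1* had opposite time courses in the cultures. It read 5.49, 6.11, 6.16 and 6.68 at 48 hr and 4.26, 4.16, 3.89 and 3.58 at 72 hr in dispersed myoblasts. On myofibers it read 4.50, 3.50, 4.16 and 5.78 at 48 hr and 7.39, 5.89, 6.00 and 5.91 at 72 hr. Neither pair of times overlapped, but in myofiber-associated myoblasts the gap was 0.12, between array 10+11 at 48 hr and replicate 2 at 72 hr. The probe was well above background on 1 array of the dispersed 72-hr group and on 2 arrays of the myofiber-associated 48-hr group. The log2 change was -2.14 (SE 0.25, the 76th largest fall) in dispersed and 1.82 (SE 0.51, rank 235) in myofiber-associated myoblasts. The smallest changes among the alternatives in processing were -0.74 and 0.70.

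Of 24 tested genes named for a pleckstrin homology domain, 4 rose (*Plekha2*, *Plekhb2*, *Plekhg4* and *Plekhh2*) and 2 fell (*Plekha1* and *Plekhb1*) in dispersed myoblasts. There 7.37% of all genes rose and 6.35% fell. In myofiber-associated myoblasts 2 rose, *Plekha2* and *Plekhg5*, and none fell, against 3.74% and 1.75% of all genes. *Plekhg5*, an exchange factor for RhoA, had opposite changes of -0.44 (limma adjusted p = 0.0333) and 0.79 (limma adjusted p = 0.00533), and its log2 CR of -1.23 passed (limma adjusted p = 0.00131), also with any array left out.

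**Figure D4:**
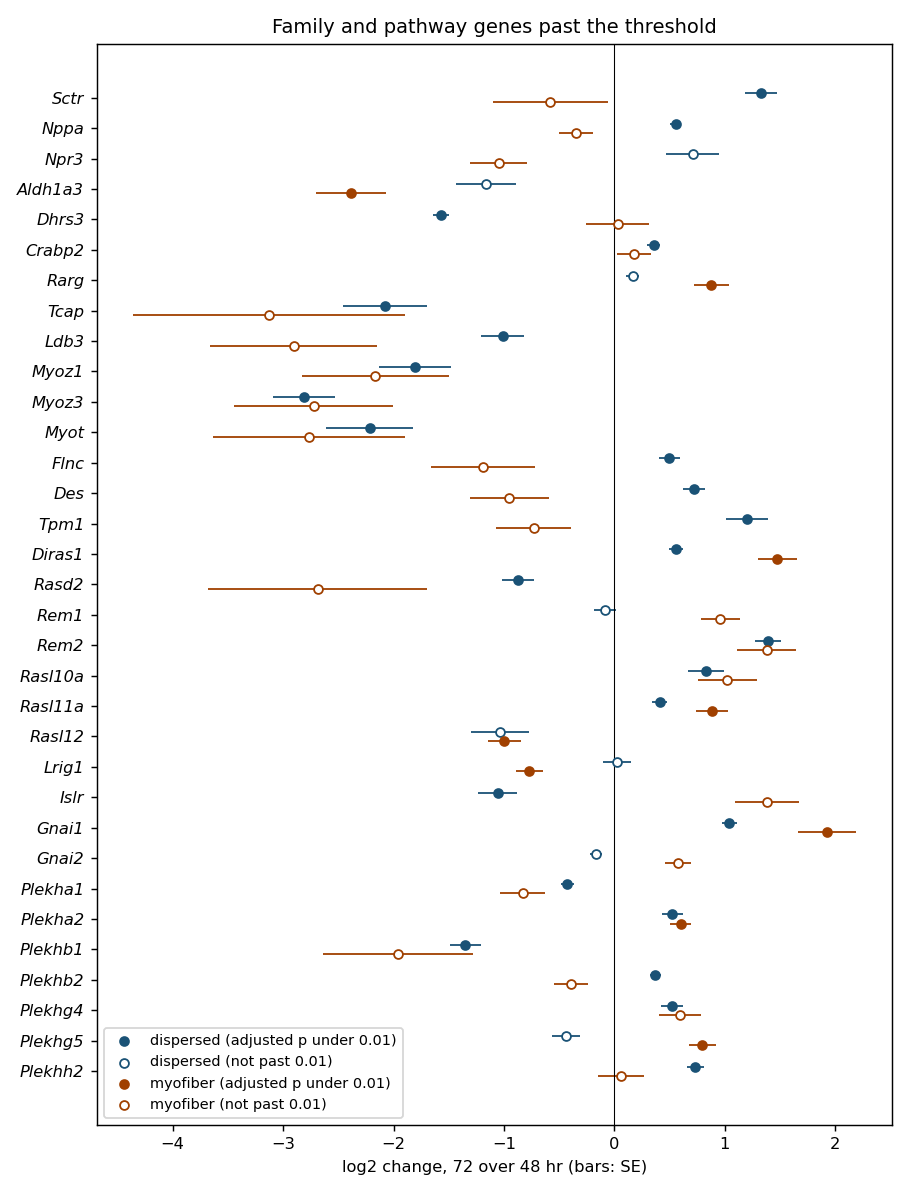
Log2 change between 48 and 72 hr (x axis, bars are SE) in dispersed and myofiber-associated myoblasts for the family and pathway genes past an adjusted p of 0.01 in a culture or for the CR. Filled points passed within that culture, and *Diras1*, *Rasl11a*, *Gnai1* and *Plekha2* are filled in both.

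Over all 110 tested relatives of the 9 genes, 15 rose and 10 fell in dispersed myoblasts (22.7%, against 13.7% of all genes). In myofiber-associated myoblasts 6 rose and 3 fell (8.18%, against 5.48%), and 8 passed for the CR (7.27%, against 3.45%). The calls depended on single arrays. In dispersed myoblasts 12 of the 25 held with any array left out, and the count was 13 without the 48-hr array of replicate 2, 14 without that of replicate 3 and 14 without the 72-hr array of replicate 7. In myofiber-associated myoblasts none of the 9 held with every array left out in turn. The count there was 1 without the 72-hr array of replicate 1, 3 without replicate 2 and 1 without replicate 3. It was 0 without the 48-hr array of replicate 7, 5 without replicate 8, 2 without replicate 9 and 14 without array 10+11.

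The levels at 48 hr were also set side by side between the cultures. The 48-hr arrays entered the changes that chose the genes, so these differences are a description and no p is given for them. In myofiber-associated relative to dispersed myoblasts at 48 hr the log2 difference was -1.64 for *Lrrn1*, -1.43 for *Gprin1* and -3.56 for *Aldh1a7*. For *Aldh1a7*, not well above background on the myofiber-associated arrays, dispersed myoblasts were 11.5-fold higher with the first limit, or at least 3.41-fold with the stricter limit. With normexp background correction that difference was -0.96. The difference was -0.50 for *Diras2*, -1.63 for *Plekhs1*, -0.96 for *Dynap* and 1.5 for *Nppb*. *Sct* had a difference of 0.02, and its myofiber-associated arrays lay on both sides of the dispersed ones. *Nebl* was near background in both groups. Without array 10+11 the difference was -1.34 for *Dynap* and -2.06 for *Plekhs1*, and without the myofiber-associated 48-hr array of replicate 8 it was 1.85 for *Nppb*. Over all genes, 27.0% were lower and 16.1% higher in myofiber-associated myoblasts past the threshold (limma). No such calls are given for the 9 genes. At 72 hr, a time that chose the genes, the log2 difference of myofiber-associated from dispersed myoblasts was 4.11 for *Diras2*, 2.97 for *Nebl*, 2.33 for *Plekhs1*, 2.09 for *Sct*, 1.86 for *Dynap* and -2.65 for *Nppb*, and that of *Lrrn1*, *Aldh1a7* and *Gprin1* was between 0.00 and 0.37. Slide and culture coincide in both comparisons, and the median difference over all genes at 48 hr was -0.12.

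The spread between arrays differed among the 9 genes. In dispersed myoblasts at 48 hr the SD was 0.09 to 0.15 for *Sct*, *Nppb*, *Gprin1*, *Lrrn1* and *Dynap*, near the median SD of 0.09 over all genes. It was 0.29 for *Diras2*, 0.49 for *Plekhs1*, 0.53 for *Nebl* and 1.02 for *Aldh1a7*. In myofiber-associated myoblasts at 48 hr the SD was 1.05 for *Sct*, 1.1 for *Nppb*, 0.93 for *Dynap* and 0.96 for *Plekhs1*, where the median over all genes was 0.22. There it was 0.62 for *Nebl*, 0.44 for *Aldh1a7*, 0.37 for *Gprin1*, 0.29 for *Lrrn1* and 0.14 for *Diras2*. Deviations from the group means were compared between genes as a description over 16 arrays that share slides and normalization. *Sct* and *Dynap* deviated together (Pearson's r 0.92), and *Nppb* deviated against *Dynap* (r -0.71) and *Sct* (r -0.63). The deviation of *Nppb* had an r of 0.73 with that of the mean adult fiber signal, and that of *Dynap* an r of -0.72 and that of *Gprin1* an r of -0.89. With the same fiber signal r was -0.55 for *Sct*, -0.55 for *Nebl*, -0.55 for *Diras2*, -0.44 for *Plekhs1*, -0.39 for *Lrrn1* and 0.03 for *Aldh1a7*. Groups with a larger spread weigh more in each r. Over the 36 pairs of genes the median r was 0.28 for deviations.

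The genes whose signal over the 16 arrays was most like that of each gene were also found, by Pearson's r of log2 signal, which mostly follows the 4 group means. *Sct* was most like *Lor* (r 0.99), *Tmem119* (r 0.99) and *Dlx2* (r 0.98). *Lor* encodes loricrin of the skin barrier, and its log2 changes were 1.94 in dispersed and 3.11 in myofiber-associated myoblasts. *Dynap* was most like *Lrrc17*, *Serpinf1* and *Lor* (r 0.98 to 0.99), and *Nebl* like *Prr9*, *Cited1* and *Tmem119* (r 0.98 to 0.99). *Tmem119* was thus among the 3 nearest to both *Sct* and *Nebl*, with changes of 3.0 and 4.82, and *Lor* among those of both *Sct* and *Dynap*.

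*Gprin1* was most like *Gnb1l*, *Scrn1* and *Nhlrc4* (r 0.99), and *Lrrn1* like *Dbndd1*, *Zfp704* and *Sbk3* (r 0.98 to 0.99). *Diras2* was most like *Tcf7* (r 0.96), *Aqp5* (r 0.96) and *Rln3* (r 0.95). *Aqp5*, a water channel of glands, had a change of a size like that of *Diras2*, 4.21 in myofiber-associated against 0.77 in dispersed myoblasts. The genes nearest to *Aldh1a7*, *Plekhs1* and *Nppb* had lower r. *Aldh1a7* was most like *Scfd1*, *Batf3* and *Cep290* (r 0.90 to 0.91), *Plekhs1* like *Fabp7* (r 0.91), *Lrrc36* (r 0.89) and *Sardh* (r 0.86), and *Nppb* like *Nipa2* (r 0.88), *Echdc3* (r 0.87) and *Snx24* (r 0.86). *Fabp7*, a fatty acid-binding protein, had changes of -0.90 and 1.46, opposite in sign as were those of *Plekhs1*.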

How the data were processed

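Expression was measured in 16 samples on one-color Agilent mouse arrays, 1 array each. The authors deposited spot intensity from the Feature Extraction scanner output, whose processed signal already had background removed. They also deposited log2 ratios that set every 72-hr array against the 48-hr arrays of its culture. The labels' processing notes name limma. Groups were taken from the labels' time and growth type.

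From the scanner files, log2 processed signal without outlier spots was set against the mean of the culture's 48-hr arrays by loess with a span of 0.3 and 4 iterations, after the study's methods, and all 16 arrays then underwent quantile normalization. Spots of identical probes were averaged, and the brightest probe stood for each of 34836 gene names. Genes with a median log2 signal of at least 5 were tested (20317). Comparisons used limma 3.58.1 in R 4.3.3, on the 8 arrays compared (16 for the CR), two-sided, with p-values adjusted by Benjamini-Hochberg over the genes tested (threshold 0.01). The study's SAM test was not used here. SE are limma's. Precision is limited by 4 arrays per group.

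The 9 genes and the lists of relatives and markers were chosen with earlier results of these data known. Named are the 9 genes, relatives past the threshold, *Sctr*, *Npr1*, *Npr2*, *Npr3*, *Aldh1a1* and *Neb*, and per gene the 3 of highest Pearson's r, passing over clone and accession names and the other 8 genes. *Lrrn3*, *Cbr2* and *Vav1* were named outside this rule, after their values were seen. The lists were the secretin family, natriuretic peptides, retinoid metabolism, nebulin and Z disc, Ras-like GTPases, leucine-rich repeat proteins, G protein and growth cone genes, dynactin, and genes with the Plekh stem, 134 genes in all. Marker lists were myoblast, muscle differentiation, adult fiber, endothelial, pericyte and smooth muscle, Schwann cell, leukocyte, fibroblast, adipocyte and tendon cell genes. RefSeq promoter windows were found for 8 of the 9 genes. The fits were tested on simulated data. Processing was varied one choice at a time: background by normexp with an offset of 50, each array scaled to its 75th percentile, quantile normalization without loess, every gene kept, only genes well above background kept, probes of a gene averaged, slide row blocked, a single fit for all 16 arrays, the deposited ratios, another limit for background, single probes, and each array left out in turn.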

Additional observations from a re-analysis of the deposited data

Results flagged for a closer look

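An array at the edge of its group of 4 stood apart in 11 of 188 groups by Dixon's criterion, where chance gives about 1 in 20. The ratio of gap to range was 0.839 for *Nebl* probe 1 in dispersed myoblasts at 72 hr. For *Nebl* probe 2 it was 0.831 in myofiber-associated myoblasts at 48 hr and 0.865 at 72 hr. For *Nebl* probe 3 it was 0.943 in dispersed myoblasts at 48 hr, 0.874 in dispersed myoblasts at 72 hr and 0.893 in myofiber-associated myoblasts at 48 hr. *Plekhs1* had 0.925 in myofiber-associated myoblasts at 72 hr. Among relatives the ratio was 0.869 for *Aldh1a1* and 0.835 for *Rasl10a* in dispersed myoblasts at 72 hr, and 0.856 for *Npr3* and 0.916 for *Rasl12* in myofiber-associated myoblasts at 48 hr.

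The change over time differed between the cultures past an adjusted p of 0.01 (limma) for 8 relatives, given as log2 CR. It was 0.898 for *Nppa* and 1.76 for *Npr3*. It was -1.6 for *Dhrs3*, -0.917 for *Diras1*, -1.04 for *Rem1*, -2.44 for *Islr*, -0.741 for *Gnai2* and -1.23 for *Plekhg5*. *Nppb* (4.14) and *Plekhs1* (-3.95) had changes of opposite sign in the cultures, and as these changes chose the genes, the difference was not tested.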

How the results depend on the processing

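No paired analysis was possible because the times compared within a culture share no replicate numbers, and numbers shared across cultures name separate preparations. Of the changes of the 9 genes, 293 of 308 values under alternatives moved by less than the spread between arrays and kept their direction. Another 13, of *Nebl*, *Aldh1a7*, *Plekhs1*, *Diras2* and *Nppb*, moved further, and 2 reversed. Leaving out 1 of 4 arrays cannot move a mean by as much as that spread. A filter, slide row as a block or one fit leaves these differences of means as they were. Most of the 293 values were therefore set in advance and do not measure stability. The reversed values were *Nebl* in dispersed myoblasts by probe 2 alone (-0.35) and *Aldh1a7* in dispersed myoblasts without the 48-hr array of replicate 3 (0.19), and for the latter gene the range with 1 array left out was -0.55 to 0.19. Of the relatives, 25 passed in dispersed myoblasts, but 15 without the filter on low signal, 7 in one fit of all 16 arrays, and 13 to 22 with 1 array left out. In myofiber-associated myoblasts 9 passed, but 1 without the filter, 5 with slide row as a block, 42 in one fit of all 16 arrays, and 0 to 14 with 1 array left out (12 without the 72-hr array of replicate 4). For the CR 8 passed, but 5 with normexp, 4 without the filter, and 3 to 20 with 1 array left out, with 19 without the myofiber-associated 72-hr array of replicate 4 and 20 without array 10+11. Without the filter more genes are tested, and one fit pools the spread of both cultures; the cause of the other shifts was not tested. At 48 hr the log2 difference of *Aldh1a7* between cultures was -3.56, and it was -0.96 with normexp, where an offset of 50 shrinks differences at low signal. With 4 arrays per group and low signal, *Nebl*, *Aldh1a7* and *Plekhs1* are measured least well.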
